A study of Mus musculus with 6 samples.

Results

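Small nucleolar RNA (snoRNA) host genes were examined in macrophages grown from the marrow of mice that had breathed cigarette smoke or room air. The members were chosen by name as 10 host genes whose own RNA is non-coding: Gas5, Snhg1, Snhg3, Snhg5, Snhg6, Snhg8, Snhg12, Snhg15, Snhg17 and Zfas1. All 10 were among the 19386 genes of the authors' deposited table and among the 12082 that carried an adjusted p-value. Snhg15 stands there under the clone name RP23-69P8.2 and was matched by its Ensembl identifier. Splicing tables added 11 JuncBASE events of 10376 and 24 rMATS introns of 3887 that lie within these genes.

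The series holds 6 RNA sequencing libraries of bone marrow-derived macrophages from wild-type C57BL/6 mice, 3 from mice exposed to room air and 3 from mice exposed to cigarette smoke. Marrow cells depleted of erythrocytes became macrophages in culture under supernatant of L929 cells, a source of the macrophage growth factor, and were harvested on day 11. The exposure was therefore of the animal, and the cells had then grown in culture. The labels give neither the age of the mice nor the length of the exposure. They describe the marrow of each mouse as divided for harvest before and after culture, but do not tie a library to a mouse. The JuncBASE p-values therefore measure the spread between these libraries, and the expression p-values that of the authors' fit of 24 libraries, 18 of them not analysed here.

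A snoRNA guides the chemical modification or the cleavage of ribosomal RNA in the nucleolus. Most mammalian snoRNAs are not made from genes of their own: they are cut out of the introns of a host transcript after splicing, so an intron that stays in the host RNA keeps its snoRNA unreleased. Box C/D snoRNAs direct methylation of the ribose and end in a CTGA motif, with a TGATGA motif near the start, and box H/ACA snoRNAs direct the conversion of uridine to pseudouridine and carry ACA near the end. The spliced RNA of a host such as Gas5 or Snhg1 encodes no long protein and is known to be removed by nonsense-mediated decay, and several hosts belong to the 5′ terminal oligopyrimidine class, whose transcripts begin with a pyrimidine run as ribosomal protein messages do.

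The GENCODE annotation placed 36 snoRNA genes within the 10 hosts on the same strand, and all 36 lay in an annotated intron. Gas5 held 10, Snhg1 held 8, Snhg12 held 5, Snhg17 and Zfas1 held 3 each, Snhg3 and Snhg5 held 2 each, and the other hosts held 1 each. Searched on the snoRNA's own strand, TGATGA in the first 20 bases together with CTGA in the last 15 was found in 20 of the 36, or 55.6%, against 20.2% of all 1507 annotated snoRNA genes. Those 20 were 60 to 93 bases long. A further 10, of 113 to 205 bases, had ACA in the last 8 bases and neither other motif, as did 43.4% of all snoRNA genes. The sequences shown are those in the introns on which the splicing results turn, 5′ to 3′ on the host's strand from the GENCODE transcripts of GRCm38, with the motifs in capitals.
Snord22 (Snhg1): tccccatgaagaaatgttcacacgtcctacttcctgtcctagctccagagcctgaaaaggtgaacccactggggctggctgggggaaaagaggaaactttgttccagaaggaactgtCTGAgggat
Snord50a (Snhg5): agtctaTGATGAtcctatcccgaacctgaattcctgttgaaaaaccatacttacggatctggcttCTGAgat
Snord80 (Gas5): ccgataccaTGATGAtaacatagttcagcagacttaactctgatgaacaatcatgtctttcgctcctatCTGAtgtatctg
Gm22489 (Gas5): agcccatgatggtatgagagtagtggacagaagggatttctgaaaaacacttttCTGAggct
Gm23212 (Gas5): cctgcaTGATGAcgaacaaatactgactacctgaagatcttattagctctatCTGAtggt
Gm24411 (Snhg17): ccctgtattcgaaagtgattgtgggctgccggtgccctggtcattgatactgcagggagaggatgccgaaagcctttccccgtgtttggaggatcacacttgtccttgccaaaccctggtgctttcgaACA
Gm24411 is the H/ACA type by these motifs and the others carry the CTGA of the C/D type. Snord22, also called U22, is known to be required for maturation of the small ribosomal subunit RNA.

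Host starts are shown because the oligopyrimidine run, known for several hosts, is also that of the ribosomal protein genes compared further on. RefSeq windows around the start, on GRCm38.p6, were at hand for 9 of the 10 hosts, and the sequences below show 50 bases of them. A run of at least 7 C or T was sought on the gene's strand. It had to touch the stretch from 10 bases before to 15 after the annotated start. Such a run was found in 4 of the 11 host windows, each of a different host. The share was 22.3% among all 32851 windows and 52.7% among 74 windows of ribosomal protein genes. The 4 were Snhg12, Snhg1, Snhg8 and Snhg5, and their longest run is in capitals, as is a run of 6 at the second of the Gas5 starts; both Snhg17 windows also had a longest run of 6.
Snhg12 (chr4:132308653-132308702, plus strand): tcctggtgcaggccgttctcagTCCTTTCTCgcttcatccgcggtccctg
Snhg1 (chr19:8723462-8723511, plus strand): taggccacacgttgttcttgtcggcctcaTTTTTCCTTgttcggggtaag
Snhg8 (chr3:123508312-123508361, minus strand): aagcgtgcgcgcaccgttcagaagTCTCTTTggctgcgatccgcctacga
Snhg5 (chr9:88522873-88522922, minus strand): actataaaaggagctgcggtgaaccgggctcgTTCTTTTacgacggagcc
Gas5 (chr1:161035141-161035190, plus strand): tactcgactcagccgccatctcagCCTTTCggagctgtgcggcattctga
A match describes these letters only and is not a measured start of transcription.

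Some facts of the whole series bear on these values. Expression was available as group means of normalized counts, with the authors' fold changes, so no library's own level can be given. Low group means were whole-read sums to within 1e-06, and the value of 1 read gave size factors, a measure of depth, of 1.67 to 2.73 for the room air libraries and 0.66 to 3.42 for the smoke libraries, not tied to replicate numbers. All 8 macrophage markers were listed, at group means of at least 348, T-cell and erythroid markers were not listed, and the listed neutrophil marker had a mean of 0 in room air and 0.195 after smoke. The 4 stromal markers summed to 50.1 in room air and 7.88 after smoke, and B-cell markers to 6.31 and 4.14. No marker passed the test, and the part of these cells in the host gene values was not tested. In bulk RNA, fewer cells that use a gene and less RNA per cell cannot be told apart.

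None of the 10 hosts passed an adjusted p of 0.05 in the authors' DESeq2 comparison of smoke with room air, where 929 genes, 7.69% of those tested, did. Among the 6407 genes whose means lay in the range of the hosts, 401, or 6.26%, passed. By the authors' deposited table, 7 hosts had a lower and 3 a higher mean after smoke, and the median log2 fold change was -0.06, against -0.003 over all genes tested. Snhg15 alone had an unadjusted p under 0.05, a level that 22.8% of all genes tested reached. The standard errors of the log2 fold changes ran from 0.20 to 0.41. For 9 of the 10 hosts the 95% interval lay within a 2-fold change either way, and for 2 of them within 1.5-fold.

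**Figure D1:**
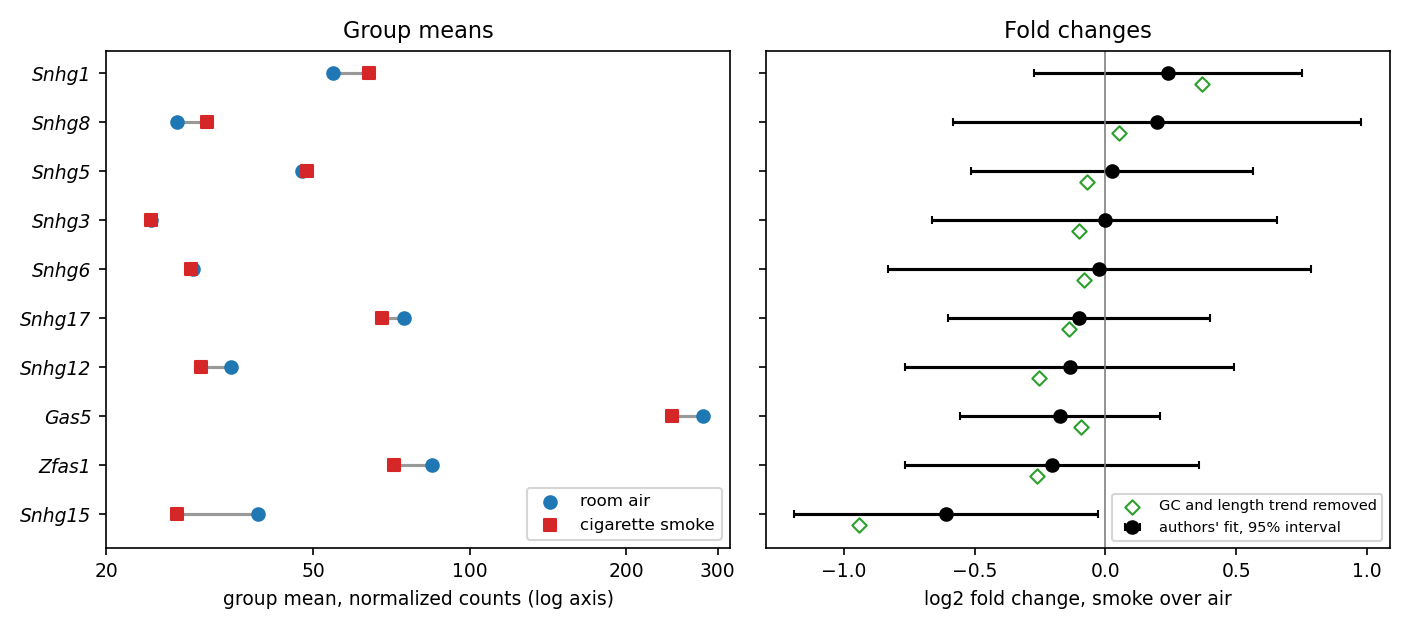
Left, group mean of normalized counts of each host gene on a log axis, with circles for room air and squares for cigarette smoke (3 libraries each); right, the authors' log2 fold change with its 95% interval, and, as diamonds, the value corrected for GC content and length. The interval of Snhg15 alone leaves out 0, and the diamonds lie on the same side of 0 as the circles for all hosts but Snhg5.

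The hosts of box C/D snoRNAs were led in level by Gas5, a growth arrest-specific transcript whose RNA is also known to bind the glucocorticoid receptor. Gas5 (chr1:161034422-161038539, plus strand) had a mean of 280.5 normalized counts in room air and 245.5 after smoke. The authors' deposited table gives this as -0.17 on the log2 scale (SE 0.20, adjusted p = 0.658, DESeq2). Its 95% interval, from 0.680-fold to 1.16-fold, was the narrowest of the 10. Snhg1 (chr19:8723475-8726443, plus strand), the host of U22, had means of 54.7 and 64.0. In the authors' deposited table this is 0.24 on the log2 scale (SE 0.26, adjusted p = 0.643), the highest of the hosts. Zfas1 (chr2:167062934-167065862, plus strand), which hosts 3 snoRNAs of the Snord12 type, had means of 84.5 and 71.7, which the authors' deposited table gives as -0.21 on the log2 scale (SE 0.29, adjusted p = 0.733). Its mean over all 24 libraries of the authors' fit was 157.7, so it was lower in both groups here than on average over that fit. Snhg5 (chr9:88521050-88522929, minus strand), the host of the U50 snoRNAs, had means of 47.7 and 48.7, and Snhg6 (chr1:9941959-9944118, minus strand), the host of Snord87, had means of 29.4 and 29.2. Neither Snhg5 nor Snhg6 had a log2 fold change above 0.03 in size.

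Hosts whose snoRNAs are all or mostly of the H/ACA type had means from 24.5 to 74.96 in room air, within the span of the C/D hosts except for Snhg3 and Snhg8, which lay below it. Snhg15 (chr11:6525591-6528760, minus strand), the host of Snora9, had a mean of 39.1 in room air and 27.4 after smoke. The authors' deposited table gives -0.61 on the log2 scale (SE 0.30, 95% interval -1.19 to -0.03, p = 0.0398, adjusted p = 0.193), and Snhg15 is not counted as changed. The log2 ratio of its group means, with 1 added to each, was smaller in size at -0.50. After correction for GC content and length its value was -0.94, with an adjusted p of 0.0783; no host passed under that correction, where 1.27% of genes did. Snhg17 (chr2:158353700-158361580, minus strand) had a mean of 74.96 in room air and 67.7 after smoke, the highest of this group. Snhg12 (chr4:132308623-132311024, plus strand), with 4 H/ACA snoRNA genes and Snord99, had means of 34.8 and 30.5. The means of Snhg8 (chr3:123507552-123508404, minus strand), the host of Snora24, were 27.4 and 31.2. Snhg3 (chr4:132348014-132353686, minus strand) hosts Snora73a and Snora73b, known as U17, which act in the cleavage of ribosomal RNA precursors. Its means were 24.5 and 24.4, the closest pair among the hosts, though most of Snhg3 lies within Rcc1 on the same strand. The log2 fold changes of Snhg17, Snhg12, Snhg8 and Snhg3 lay between -0.14 and 0.20, and their adjusted p from 0.830 to 0.998, in the authors' deposited table.

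Compared per kilobase of merged exon sequence, Gas5 was highest in room air at 74.6 normalized counts per kilobase, followed by Snhg8 at 32.2. Snhg17 was lowest at 10.6, so the hosts spanned a 7.02-fold range. The merged exons include isoforms that keep introns: they fill 100% of the gene in Snhg1, Snhg8, Snhg12 and Zfas1, 89.5% to 92.0% in Gas5, Snhg5 and Snhg17, and 17.4% to 53.1% in Snhg3, Snhg15 and Snhg6, so the order depends on these lengths. The middle of the order is close: Zfas1, Snhg15, Snhg5, Snhg6 and Snhg3 lay between 24.8 and 28.9 per kilobase in room air. After smoke the same measure ran from 9.61 in Snhg17 to 65.3 in Gas5. No spread over libraries stands behind these levels, so the order of neighbours within them was not tested.

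Counts assigned to the snoRNA genes themselves were too low to test. Of the 36, 34 were listed and none had an adjusted p-value. The highest group means were those of Gm22357 in Gas5, at 8.94 in room air and 6.84 after smoke, and of Snord78 in Gas5, at 7.07 and 5.23. Summed over the 34, the means were 60.3 and 46.8 normalized counts. The authors' deposited table gave 25 of them a fold change below 0 and 9 one above 0, and the lowest unadjusted p was 0.202, for Snord12 in Zfas1 (means of 2.44 and 0.801). Snord22 in Snhg1 had means of 3.40 and 1.69. Among 157 listed snoRNA genes outside these hosts 117 were below 0, and 1 of the 3 tested passed. Mature snoRNAs are short and lack a poly(A) tail, and reads over them in such libraries can also come from the host's unspliced RNA. Snord80 and Snora16a are each annotated as a pair of overlapping genes, so their counts cannot be told apart. The sums and the counts of signs above include both genes of each pair and can hold the same reads more than once.

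Several hosts lie against other genes, and 4 protein-coding genes with an adjusted p-value begin within 1000 bases of a host's start. Zbtb37, a gene for a zinc finger protein read from the opposite strand, overlaps the first 428 bases of Gas5. It had a mean of 111.0 in room air and 57.7 after smoke and fell, by the authors' deposited table, at -0.89 on the log2 scale (SE 0.22, adjusted p = 0.00329). With the trend in GC content and length removed its value was -0.39, with an adjusted p of 0.520. Slc3a2, the heavy chain of an amino acid transporter, begins 106 bases from Snhg1 on the other strand, and had means of 854 and 1121 with a log2 fold change of 0.39 (adjusted p = 0.0909) in the same table. Rcc1, a chromatin-bound exchange factor, contains most of Snhg3 on the same strand and had means of 149 and 185 (adjusted p = 0.575). Znfx1, a zinc finger protein, shares 82 bases with Zfas1 and had means of 2463 and 2282 (adjusted p = 0.621). The library kit keeps strand, but whether the counting used it is not given in the sources used here. Reads in the overlaps of genes on opposite strands therefore cannot be told apart. Rcc1 and Snhg3 share a strand over 5592 bases, so strand could not separate their reads there. The difference between a host and its neighbour was not tested. Mcmdc2, at the end of Snhg6, had means of 2.97 and 1.38 (adjusted p = 0.649), and Gm17300, Gm23925 and Gm27494 were too low to be tested.

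**Figure D2:**
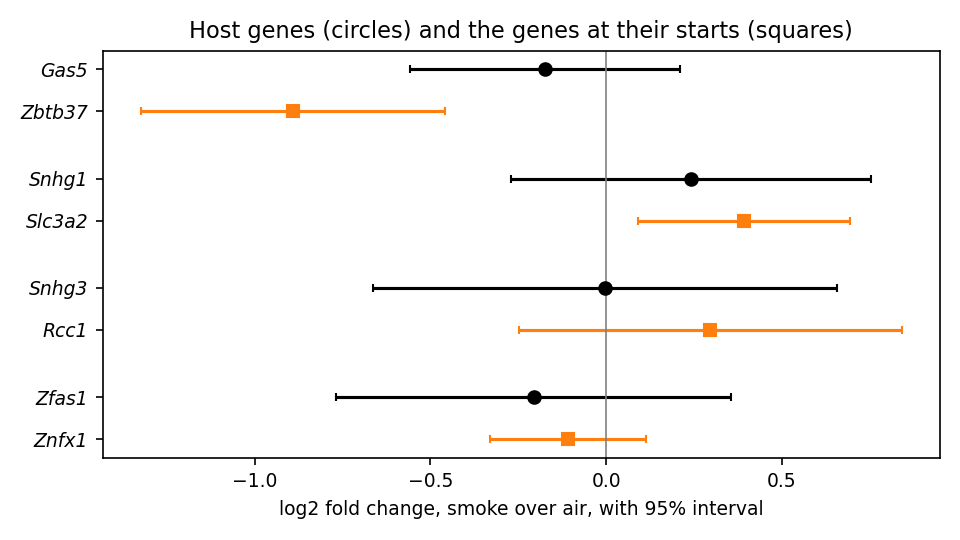
The authors' log2 fold changes of smoke over room air, with 95% intervals, for 4 host genes (circles) and the protein-coding gene that starts next to each (squares). Zbtb37 lies below 0 with an interval from which that of Gas5 is not fully separate, and the other pairs overlap widely.

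Genes of related function gave a background for the hosts. Of 83 ribosomal protein genes tested, 14 rose and none fell, against 4.15% and 3.53% of all genes tested, and their median log2 fold change was 0.27. Among those that rose in the authors' deposited table were Rps15 (0.64 on the log2 scale, adjusted p = 0.00604) and Rpl18 (0.59, adjusted p = 0.00336). With the trend in GC content and length removed, 1 of the 83 passed, or 1.20% against 1.27% of all genes, and the median was 0.08. Over all genes tested, the log2 fold changes had a Spearman correlation of 0.483 with GC content and of -0.448 with length, across genes that are not independent. The hosts, had a longest transcript with 45.4% GC and 1380 bases at the median, and the genes tested 49.4% and 3250 bases.

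The proteins of the snoRNA particle included 2 that rose among 17 tested, Nhp2 and Fbl. Nhp2, a core protein of H/ACA particles, had means of 91.9 and 157.1, or 0.79 on the log2 scale of the authors' deposited table (SE 0.16, adjusted p = 0.000193). Fbl, the methyltransferase fibrillarin of C/D particles, had means of 162.9 and 250.4, or 0.64 on the same scale (SE 0.13, adjusted p = 0.000388). The 2 are 11.8% of the 17, against 4.15% of all genes tested that rose. None fell, 15 of the 17, or 88.2%, were above 0 against 49.7% of all genes tested, and the median was 0.26. With the trend removed the median was 0.26, Fbl passed (adjusted p = 0.0232), Nhp2 did not (adjusted p = 0.0985), and the share past the test was 5.88% against 1.27% of all genes.

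Of 16 nonsense-mediated decay factors, Smg1, the kinase that phosphorylates Upf1, fell from 1132 to 804, or -0.49 on the log2 scale of the authors' deposited table (adjusted p = 0.00929). No other passed, so 6.25% of the list changed, against 7.69% of all genes tested, and the median was 0.03. Smg1 did not pass with the trend removed (adjusted p = 0.903). The glucocorticoid receptor and 9 genes it induces gave none of 10 past the test, where 7.69% of all genes passed. Their median was 0.13, and -0.01 with the trend removed. The receptor gene Nr3c1 itself had means of 844 and 606 (adjusted p = 0.0984).

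Protein-coding genes that also carry snoRNAs numbered 209 tested, of which 13 rose and 6 fell, or 9.09% against 7.69% of all genes tested, with a median of 0.03. With the trend removed 4 passed, or 1.91% against 1.27%. Among those past the threshold, the 4 largest changes in the authors' deposited table were in Odc1, the first enzyme of polyamine synthesis, which rose from 132.3 to 444.5 (1.76 on the log2 scale, adjusted p = 0.00652), and in Prpf39 (-0.90, adjusted p = 0.000437), Rc3h2 (-0.67, 8.31e-05) and Tmf1 (-0.60, 0.0354), which fell. Of these 4, Odc1 passed with the trend removed (adjusted p = 0.0478). Of 13 other non-coding hosts 9 were listed and 2 tested, Snhg4 (19.8 and 13.9, adjusted p = 0.529) and Snhg20 (35.3 and 35.7, adjusted p = 0.974).

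**Figure D3:**
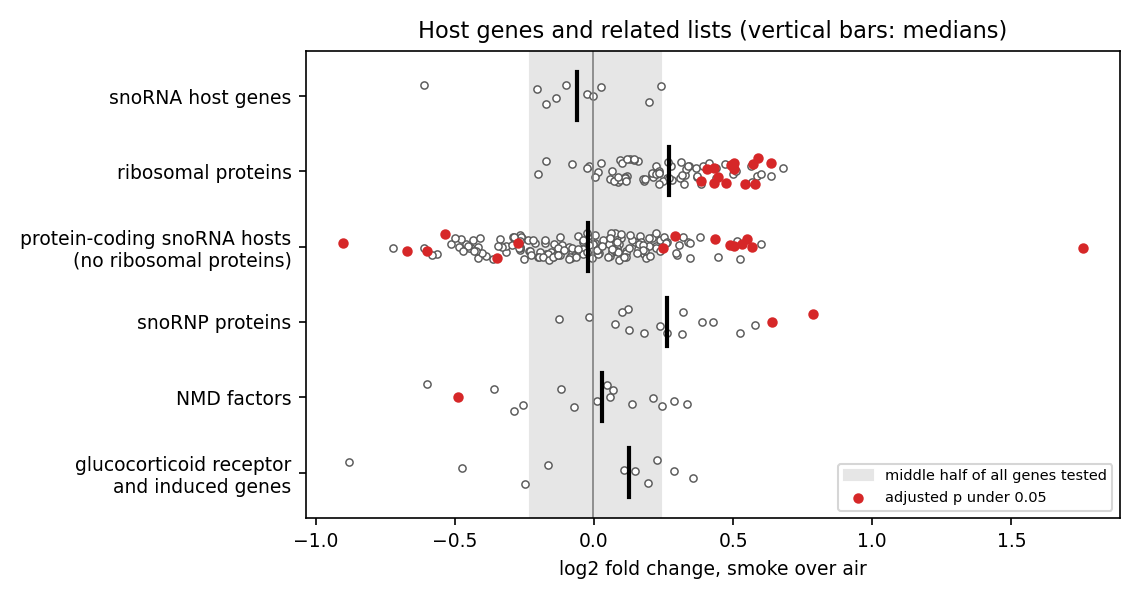
Each point is the authors' log2 fold change of 1 tested gene, by list, with filled points for an adjusted p under 0.05 and a vertical bar at the list's median; the grey band spans the 25th to the 75th percentile of all genes tested. The 10 host genes centre at -0.06 with no filled point, the ribosomal protein genes at 0.27 with 14.

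JuncBASE, which gives for each library the percentage of informative reads that include an event, listed 10 events in Gas5 and 1 in Zfas1, and none in the other hosts. None passed limma with Benjamini-Hochberg adjustment over all events (lowest adjusted p = 0.413). The background is 0%, since no event of the 10376 did. Without smoke replicate 3, 1 host event passed, as did 10.9% of all events, and among the 5933 events with values in all 6 libraries no host event and 0.388% of all passed. At an unadjusted p under 0.05 there was 1 host event against 10.8% of all events, and the authors' own JuncBASE test gave no host event a raw p under 0.05. All 9 host introns had a lower mean retention after smoke, as did 92.5% of the 1992 retained introns with values in 6 libraries.

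The Gas5 intron with Snord80 (chr1:161037548-161037994) had the lowest p of the 11. It was retained at 7.69%, 4.76% and 4.92% in room air and at 0%, 0% and 4% after smoke (5.79% ± 1.65 and 1.33% ± 2.31, SD, n = 3 each). This was the event under 0.05 before adjustment, and its adjusted p by limma was the lowest given above. All smoke values lay below all room air values, and in 2 smoke libraries no retention was recorded. The intron with Gm22489 (chr1:161035805-161035982) stood at 4.55%, 4.13% and 5.15% in room air and at 3.70%, 0% and 1.01% after smoke. These groups did not overlap either, and the levels were near the lower end of the scale. The intron with Gm23212 (chr1:161036580-161036819) was at 13.9%, 9.80% and 12.4% in room air and at 0%, 7.41% and 7.79% after smoke. The intron of 304 bases that holds no snoRNA (chr1:161036245-161036548) was at 18.9%, 25% and 26.8%, against 11.1%, 14.3% and 15.8%. It had the largest difference of means, -9.81 percentage points, again without overlap.

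In the other host introns the groups overlapped or a value was missing. The Gas5 intron with Gm22357 (chr1:161036015-161036207) was retained at 12.7%, 13.5% and 12.4% in room air and at 10.0%, 14.7% and 5.75% after smoke, with smoke replicate 2 the highest of the 6. Smoke replicate 2 was also highest for the 271-base intron with Snord78 (chr1:161036853-161037123), at 29.4% against 14.3% and 17.0% in the other smoke libraries and 27.3%, 20.8% and 23.4% in room air. The 123-base intron that follows it (chr1:161037165-161037287) ran from 0% in smoke replicate 1 to 25% in smoke replicate 2, around 24.3%, 16.7% and 17.6% in room air. Skipping the exon between these introns gives a 435-base intron, retained at 33.3%, 27.3% and 30.6% in room air and at 30.8% and 29.3% in smoke replicates 2 and 3, with no value in replicate 1. The 435-base intron contains the other 2, so their levels share reads. The Zfas1 intron with Gm23201 (chr2:167063728-167065158) was at 6.67%, 3.90% and 6.98%, against 0%, 7.69% and 2.38%.

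Both alternative exons were in Gas5. The 41-base exon next to the Snord78 intron was included at 57.4%, 61.4% and 68.3% in room air and at 73.3%, 50% and 66.7% after smoke, so means of 62.4% and 63.3% differed by less than either group's SD. The 37-base exon next to the Gm22357 intron was included at 90.4%, 89.3% and 90.8%, against 93.8%, 84.0% and 88.7%. Smoke libraries were more spread than room air libraries for both.

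**Figure D4:**
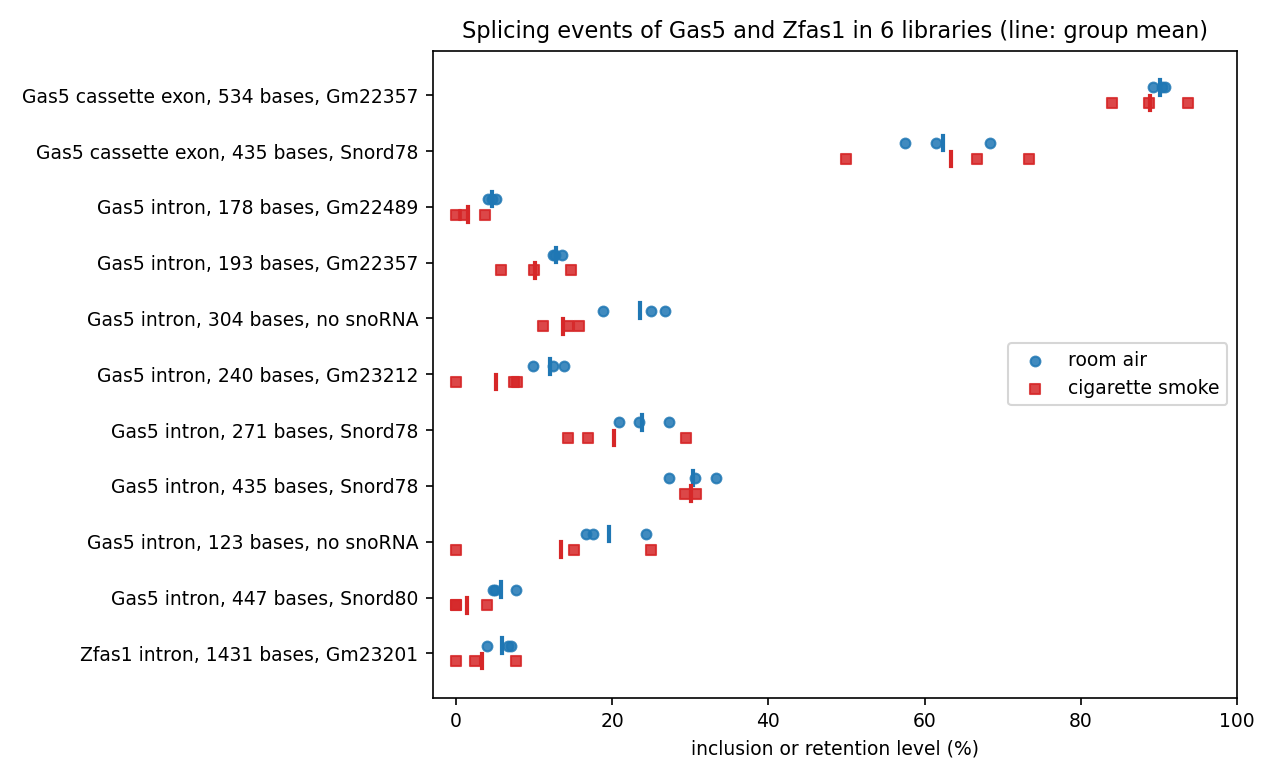
Inclusion level of the 2 cassette exons and retention level of the 9 introns, in percent, in each of 3 room air (circles) and 3 smoke libraries (squares), with a vertical line at the group mean; labels give the length of the intron and the snoRNA gene in it. The 4 introns of 178, 304, 240 and 447 bases have every square to the left of every circle.

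Of the 8 host introns with values in 6 libraries, 7 lie in Gas5 and 1 in Zfas1, so the averages below are mostly those of 1 gene. In 4 of the 8, all in Gas5, all smoke values lay below all room air values, against 38.7% of all 1992 such introns. Averaged over the 8, retention was 14.5%, 12.3% and 13.7% in the room air libraries and 4.89%, 12.3% and 8.60% in the smoke libraries. The difference of -4.90 percentage points (13.5% ± 1.09 against 8.60% ± 3.71, SD, n = 3 each) had a two-sided exact permutation p of 0.1, the smallest that 3 against 3 allows. Over all 1992 introns the difference was -4.23 points. Smoke replicate 1 lacked a value for 4169 events, against 1 to 398 in the other libraries, and it recorded 4 of the 8 host introns at exactly 0%, as did smoke replicate 2 for 2 and no other library for any. Over all 1992 introns the share at exactly 0% was 63.3% in smoke replicate 1, 46.5% in smoke replicate 2 and 2.71% to 12.9% in the other 4. Without smoke replicate 1 the host difference was -3.04 points and that over all introns -3.65, and 4 host introns were without overlap, against 42.2% of all. Without smoke replicate 2 all 8 were, against 45.5% of all, so the count of 4 rests on that library, and leaving out any other library kept it at 4. The part of depth in these values was not tested.

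The authors' deposited rMATS table, which adds intron-body reads to junction reads, covered 24 introns in Gas5, Snhg1, Snhg5, Snhg12, Snhg17 and Zfas1, of which 19 hold a snoRNA gene. It compares sample set 1 with sample set 2, and which set is smoke is not stated, so no direction is given here. Introns past a false discovery rate of 0.05 numbered 2 of 24, or 8.33%, where 14.5% of all introns in that table passed. The intron of Snhg1 with Snord22 (chr19:8725827-8726066) differed by 18.3 percentage points between the sets (false discovery rate 0.000946). The intron of Snhg17 with Gm24411 (chr2:158356042-158357197) differed by 9.3 points (0.0129). Both were higher in set 1, as were 21 of the 24, or 87.5%, and 69.8% of all introns in the table. The median difference was 3.4 points over the 24 and 1.6 over all.

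The intron of Snhg5 with Snord50a (chr9:88521449-88521649) came next, which the authors' deposited table gives at 12.3 points (false discovery rate 0.0505). In Snhg1 the introns with Gm22744, Gm22680 and Gm23246 differed by 5.8, -0.6 and 0.3 points, and the last intron, without a snoRNA, by 5.9, against 18.3 for the Snord22 intron. In Snhg17 the other introns ran from -21.2 points, for the intron with Gm26003, to 22.6, for 1 of 3 overlapping introns with Gm23925, at false discovery rates of 0.466 or more. In Snhg12 the introns with Snora44, Snord99 and Snora61 differed by 8.9, 5.4 and 1.1 points, and in Zfas1 the intron with Snord12 differed by 2.7 and the intron without a snoRNA by 4.5 (false discovery rate 0.135). The other Snhg5 intron, without a snoRNA, differed by -5.1, so it was 1 of the 3 that were lower in set 1.

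Gas5 had 7 introns in the same deposited table, all higher in set 1, by 0.1 to 8.7 points, and none passed. The largest was the 304-base intron without a snoRNA (false discovery rate 0.0654), which also had the largest difference in JuncBASE. The introns with Snord80, Gm25789 and Gm23212 differed by 2.3, 0.8 and 0.6 points. Of the introns with Snord78, that of 271 bases differed by 2.7 points and that of 435 bases by 0.1. The introns found in both tables numbered 5, all in Gas5. In all 5 the sign of set 1 minus set 2 was opposite to that of smoke minus room air in JuncBASE. Snhg3, Snhg6, Snhg8 and Snhg15 had no event in either table, and nothing about their splicing can be said here.

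**Figure D5:**
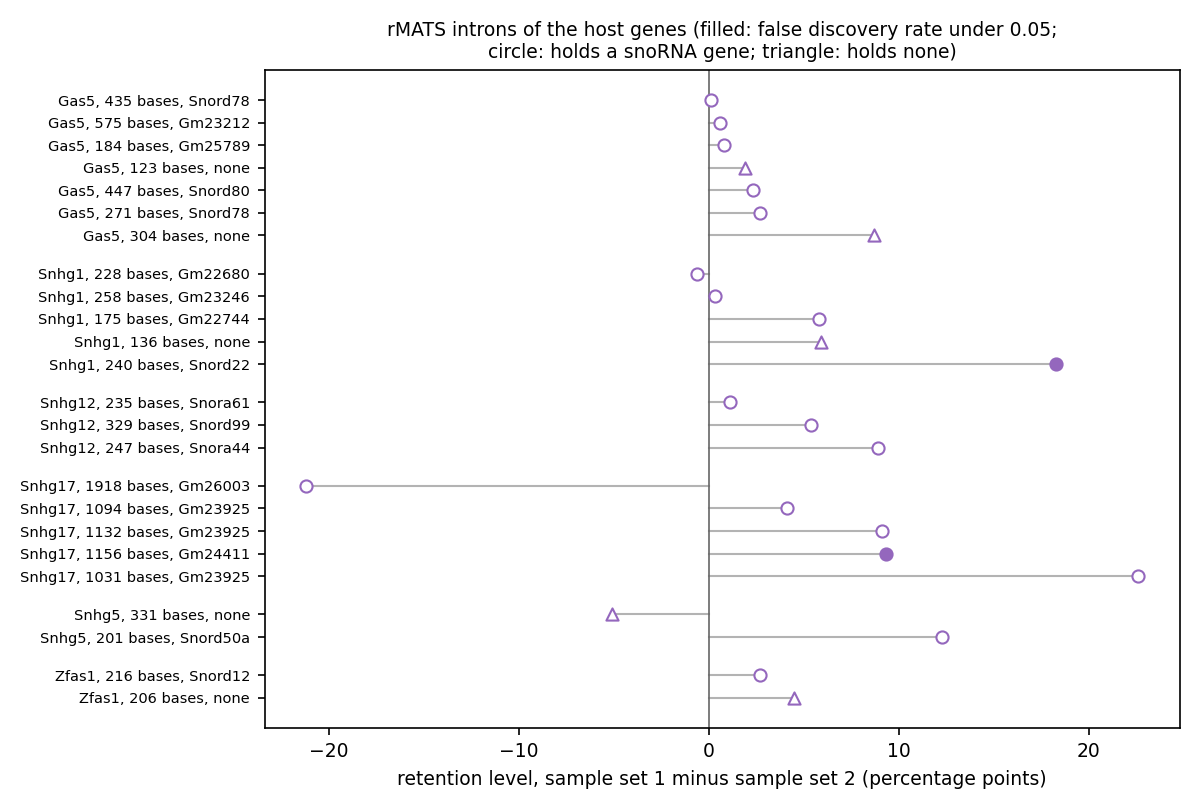
Difference in retention level between the authors' sample sets 1 and 2, in percentage points, for each of 24 introns, labelled by host, length and the snoRNA gene inside; circles hold a snoRNA gene, triangles none, and filled symbols have a false discovery rate under 0.05. The Snord22 intron of Snhg1 at 18.3 points and the Gm24411 intron of Snhg17 at 9.3 are the filled symbols.

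The authors' merged assembly held 79 transcripts at the 10 hosts, in a single locus at each host, from 3 at Snhg8 to 19 at Gas5. Counted was every transcript with an exon on the host's strand that overlaps its bounds. The 8 at Snhg3, and their locus, can therefore include transcripts of Rcc1, which contains most of Snhg3 on the same strand. Transcripts of a single exon were found at Snhg3, Snhg8 and Zfas1, 1 each.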

How the data were processed

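RNA of 6 macrophage cultures was read with a directional kit, per the labels' protocols. STAR, DESeq2, SAMtools 1.9, bedtools 2.27.1 and the build mm10 are named in the submitters' processing notes. The counting program and its strand setting are not given in the sources used here. The authors' deposited gene table gives signal columns (group means of size-factor-normalized counts), log2 fold changes with standard errors, a Wald score and p-values from a DESeq2 fit of 24 libraries, of which 18 are not analysed here, so their spread entered the standard errors. JuncBASE percent inclusion per library, its difference score and its p-values were deposited by the authors, as were rMATS false discovery rates. Of the rMATS columns, 6 hold per-sample values and were not used.

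Intervals are the fold change with 95% normal limits. Levels p were tested with limma 3.58.1 (R 4.3.3) as log2((p + 1)/(100 - p + 1)) over all events. A trend in GC content and log2 length of the longest transcript was fitted with splines of 4 degrees of freedom (statsmodels 0.14.6, patsy 1.0.2) and removed. Both were tested on simulated data. Read coverage of the levels is unknown. Positions are from GENCODE M21 on GRCm38. Named were all hosts, snoRNA genes in them, genes that overlap a host or start within 1000 bases on the other strand, and of each list the genes past the threshold, at most 4, of which some are not reported here; single introns and snoRNA genes beyond those in the text are given as ranges and counts. The members and lists were chosen with earlier results of these data known.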

Additional observations from a re-analysis of the deposited data

How the results depend on the processing

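None of the 10 hosts passed with adjustment over all genes with a p-value or with the trend in GC content and length removed, and none of the 4 hosts that remained among genes whose mean reached 50; Snhg15 was not among these 4. The sign of the Snhg5 log2 fold change turned with the trend removed, from 0.026 to -0.069. That setting also lowered the calls to 1 for snoRNA particle proteins, 0 for decay factors, 1 for ribosomal proteins, 4 for protein-coding hosts and 4 for those without ribosomal proteins, where the main counts were 2, 1, 14, 19 and 15; over all genes calls went from 929 (7.69%) to 153 (1.27%). The cause was not tested.

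Leaving out each library in turn gave 0 to 1 JuncBASE host events past the threshold. The 1 came without smoke replicate 3, in the Gas5 intron with Snord80 (adjusted p = 0.0216), where both remaining smoke values were 0%, and 1131 of all 10376 events (10.9%) passed there too. With events valued in all 6 libraries alone, 23 of 5933 events (0.388%) and no host event passed. The lowest adjusted p under the other settings ran from 0.263 to 0.679. The mean difference over 8 introns ran from -6.75 points (without smoke replicate 2) to -3.04 (without smoke replicate 1), was -5.89 between the groups' means of per-library medians, and -7.98 over the 2 introns without a snoRNA. With the ninth intron added it was -5.32, a value that cannot be set beside the others, since smoke replicate 1 has no level for that intron. With the replicate block, no event passed (lowest adjusted p = 0.609) and the mean difference, which a balanced block cannot move, had an exact p of 0.25, the smallest that 3 pairs allow. Whether the shared numbers pair the libraries is not known. Deviations of libraries with the same number correlated at 0.02, -0.04 and -0.09, and those with different numbers at -0.07 to 0.13. With 3 libraries per group these values cannot decide it. The rMATS count fell from 2 to 1 at a false discovery rate under 0.01, and to 1 where a difference of at least 10 points was also asked. The count of introns without overlap ran from 4 to 8 (without smoke replicate 2) with each library left out, an alternative added after the data had been seen. Group means without per-library values limit what expression can show.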
